A study of Oryza sativa with 6 samples.

Results

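Metallothionein genes of rice were followed in developing embryos of a giant embryo line and a line with embryos of normal size. A gene was taken as a metallothionein gene if its deposited annotation held one of the Pfam domains Metallothio_2 or Metallothio_PEC, or if its best protein hit in NR or Swiss-Prot was named a metallothionein. This rule found 14 of the 61955 genes in the table. Of these, 11 had a Pfam domain (10 Metallothio_2 and 4 Metallothio_PEC, with 3 holding both), 11 had a Swiss-Prot hit and 6 an NR hit. The rule used no expression value.

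RNA was sequenced from 6 embryo samples of indica rice taken 15 days after flowering, 3 of NIL-D (EG) and 3 of NIL-X (CG). NIL-D, labelled with the genotype CMP-/-, is the near-isogenic line that carries the giant embryo allele from the cultivar Dapeimi, and NIL-X, labelled wild type, carries the homologous segment from the other parent, a cultivar with normal embryos. The labels do not explain the genotype name. Each line came from selfing of the same cross, so that an effect of the allele cannot be told apart from other differences that remain between them. The 3 samples of a line were grown in 3 field plots and each pooled embryos of a group of plants, and the labels do not tie a replicate number to a plot.

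Plant metallothioneins are small proteins rich in cysteine, whose thiol groups bind zinc, copper and cadmium and react with oxygen radicals. The types differ in the spacing of their cysteines and in the organs that make them. In plants in general, MT1 is known mainly from roots, MT2 from shoots, MT3 from leaves and ripening fruits, and the Ec-type, with the Metallothio_PEC domain, from seeds, where it is known as a zinc-binding protein of the embryo. Transcripts of this family are among the most abundant in many plant tissues.

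Expression was deposited as TPM, the relative abundance of transcripts scaled to gene length and to the same total in every sample. Levels of different genes are set side by side on this scale, which depends on the length of each gene model. These lengths ran from 198 to 3417 bp among the metallothionein genes, and their part in the order of the genes was not tested. In the NIL-D samples 26270 to 27013 genes were above 0, and the 10 highest genes held 18.2% to 21.6% of all TPM. In the NIL-X samples these values were 27224 to 27709 genes and 15.3% to 18.0%. Neither measure overlapped between the lines, and its part in the differences of single genes was not tested. The paper reports the amount of clean sequence in total and its minimum per sample. Read counts per gene were not given, so the number of reads behind each value is unknown. Embryo markers were high in both lines, with 33720 to 37369 TPM summed over 6 oleosin genes, the coat proteins of oil bodies. Endosperm markers were also present, with 34777 to 41447 TPM over 20 glutelin genes and 3053 to 12900 TPM over 17 prolamin genes (16 of them above 0), and the summed level of each overlapped between the lines. The study names the giant embryo gene by a transcript number, and the gene with the same number in the table, OsZS_07G0416900, was annotated as a sulfotransferase and stood at 0.04 to 0.68 TPM. A gene nearby by number and annotated as a cytochrome P450 of the CYP78A family, OsZS_07G0414800, was at 5.26, 5.01 and 0.99 TPM in NIL-D and 3.3, 3.73 and 3.48 TPM in NIL-X, so the lines overlapped. Neither gene gave a check of the labels. NIL-D replicate 3 stood apart, since the number of called genes rose from 138 to 611 without it.

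The metallothionein genes spanned a wide range of levels. MT2C, MT21A and MT3A together held 97.3% to 98.9% of all metallothionein TPM in every sample. Between the lines, MT3A was about 9 times higher in NIL-D, MT2C and MT21A overlapped, and MT1A, a gene of low level, was lower in all NIL-D samples without passing the test. A mean of at least 0.5 TPM over the 6 samples was reached by 7 of the 14 genes, and these were tested.

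**Figure D1:**
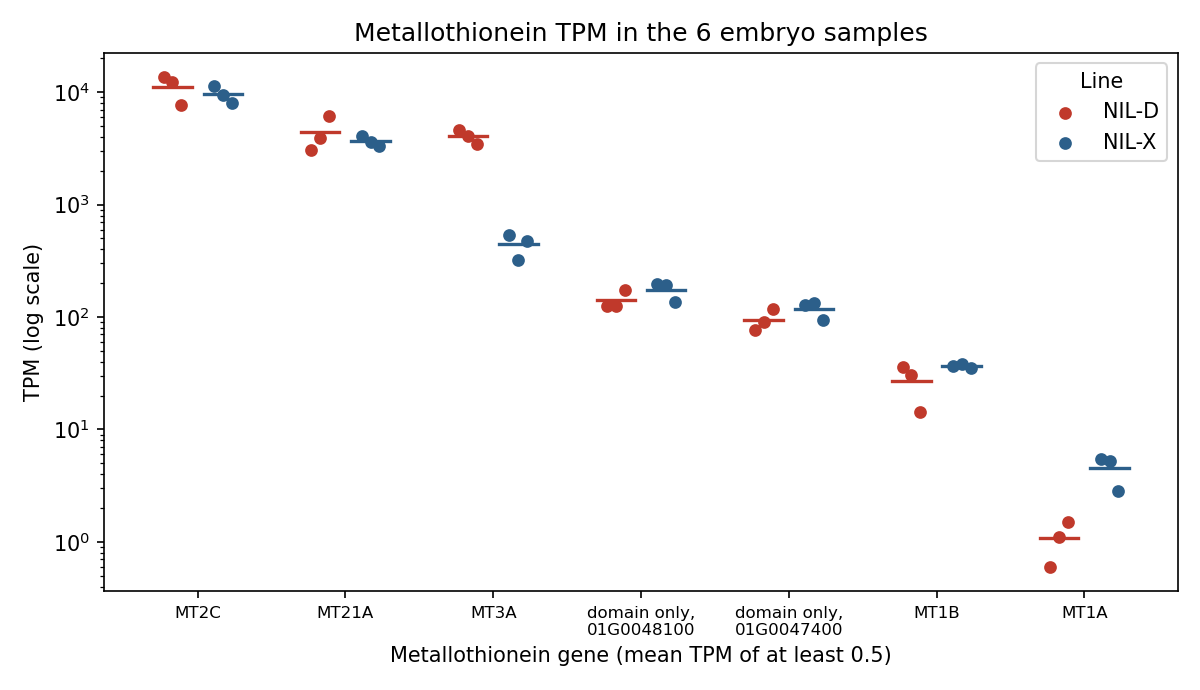
TPM (log scale) of the 7 metallothionein genes with a mean of at least 0.5 TPM, with 1 point per embryo sample and a bar at the mean of the 3 samples of each line. MT3A lies between 3454 and 4644 TPM in NIL-D and between 322 and 536 TPM in NIL-X, while the points of both lines overlap for every other gene except MT1A.

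MT3A (OsZS_01G0091000, chromosome 1, 1609 bp), a type 3 metallothionein, was the member that differed most. Its level was 4644, 4056 and 3454 TPM in NIL-D replicates 1, 2 and 3, and 536, 322 and 476 TPM in NIL-X replicates 1, 2 and 3. All NIL-D samples were high and all NIL-X samples low, and the lowest NIL-D sample was far above the highest NIL-X sample. The NIL-D mean was 4051 ± 595 TPM and the NIL-X mean 445 ± 110 TPM (SD, n = 3 each), a ratio of 9.11. By mean TPM, MT3A ranked 19 among all genes in NIL-D and 256 in NIL-X.

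The log2 fold change (log2FC) of MT3A, NIL-D over NIL-X on the log2(TPM + 1) scale, was 3.21 (SE 0.25, 95% interval 2.60 to 3.81) with an adjusted p of 0.00469 by limma over all 21500 tested genes. A gene counted as called where its adjusted p was below 0.05 and its log2FC was at least 1 in size. MT3A was the 1 metallothionein gene called of 7 tested, where 138 of the 21500 tested genes (0.642%) were called, 57 of them (0.265%) higher in NIL-D and 81 (0.377%) lower. None of the other 137 called genes had a higher mean TPM over the 6 samples than MT3A, and no other called gene had a NIL-D mean above 1000 TPM. The difference of the means, NIL-D minus NIL-X, was 3607 TPM. It ranked 5 among all tested genes when only higher means in NIL-D were ranked, without regard to decreases. An exact permutation test of 3 samples against 3 cannot go below p = 0.1, the value that MT3A reached.

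The call of MT3A held in every one of the 14 alternative settings tried, with log2FC values from 2.99 to 3.38 and limma adjusted p from 0.00256 to 0.0465. Over all tested genes the median log2FC was -0.15, and MT3A stood 3.36 above it.

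Marker sums of other seed tissues were set beside MT3A. Prolamin, a storage protein of the endosperm, summed to 4778, 6998 and 3053 TPM in NIL-D and 4939, 11341 and 12900 TPM in NIL-X. NIL-X replicates 2 and 3 were the highest and the lines overlapped, and the part of endosperm RNA in the MT3A difference was not tested. Of the embryo markers, the summed Em proteins (2 late embryogenesis genes) were at 7011 to 11614 TPM in NIL-D and 14370 to 17120 TPM in NIL-X, and 3 vicilin-like globulin genes (2 above 0) at 7671 to 8660 and 6550 to 7010 TPM. Both of these sums separated the lines without overlap, the first lower and the second higher in NIL-D, and their part in the MT3A difference was not tested. The remaining embryo marker, oleosin, overlapped between the lines, at 33996 to 37369 TPM in NIL-D and 33720 to 36596 TPM in NIL-X. The sums of granule-bound starch synthase, chlorophyll a-b binding proteins (29.1 to 74.0 TPM over 23 genes) and the small subunit of ribulose bisphosphate carboxylase overlapped between the lines. In bulk samples, fewer cells of a type and less RNA per cell cannot be told apart.

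The genes on either side of MT3A were compared with it. Of the 20 nearest tested genes by gene number, 10 before and 10 after MT3A on chromosome 1, none was called by limma, beside 0.642% of all tested genes, and 5 (25%) had an unadjusted p below 0.05, beside 15.6% of all tested genes. Their log2FC values lay between -0.65 and 0.80, with a smallest adjusted p of 0.218, and their highest mean level was 91.9 TPM. The count of 0 among 20 is near the background.

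**Figure D2:**
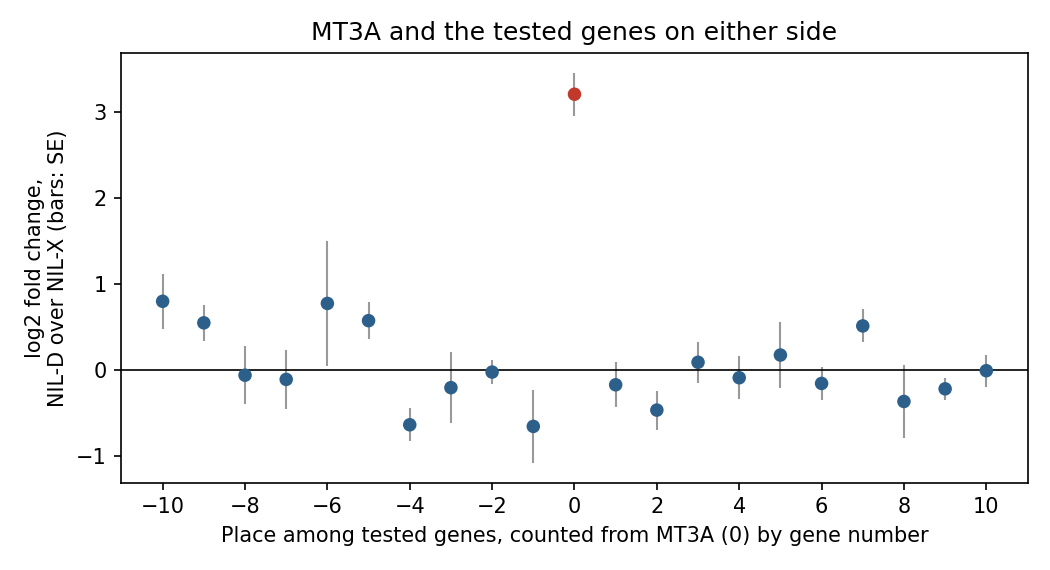
Log2 fold change (NIL-D over NIL-X, of TPM + 1, bars: SE) of MT3A, at place 0, and of the 10 nearest tested genes on each side, in the order of their gene numbers. MT3A is at 3.21 and the 20 other genes lie between -0.65 and 0.80.

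MT2C (OsZS_05G0010000, chromosome 5, 1033 bp), a type 2 metallothionein whose NR hit is named 2b-like, had the highest level of the family in every sample. It was at 13553, 12325 and 7721 TPM in NIL-D replicates 1, 2 and 3 and at 11315, 9409 and 7963 TPM in NIL-X. NIL-D replicate 3 was the lowest of all 6 samples and the other NIL-D samples the highest, so that the lines overlapped. Mean levels were 11200 ± 3075 TPM (SD, n = 3) and 9562 ± 1681 TPM (SD, n = 3), at rank 6 of all genes in NIL-D and rank 8 in NIL-X. The log2FC was 0.20 (SE 0.38, 95% interval -0.70 to 1.11, limma adjusted p = 0.821), an interval that still holds a doubling in NIL-D.

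MT21A (OsZS_10G0373600, chromosome 10, 1065 bp) is taken here as the Ec-type gene and is 1 of the 4 members with the Metallothio_PEC domain. That domain alone does not set MT21A apart, since OsZS_01G0048100 and OsZS_01G0047400 hold it too. The annotation of MT21A describes a zinc-binding protein with a role in zinc homeostasis during embryogenesis. The level was 3071, 3895 and 6202 TPM in NIL-D replicates 1, 2 and 3 and 4092, 3624 and 3333 TPM in NIL-X. NIL-D samples were both the lowest and the highest of the 6, and replicate 3, the lowest NIL-D sample for MT2C and MT3A, was the highest for MT21A. The log2FC was 0.20 (SE 0.33, 95% interval -0.58 to 0.97, limma adjusted p = 0.795), and it was -0.086 without NIL-D replicate 3. The NIL-D mean was 4389 ± 1623 TPM and the NIL-X mean 3683 ± 383 TPM (SD, n = 3 each), at ranks 17 and 19 of all genes.

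The order of the 3 abundant genes differed between the samples. In NIL-X it was MT2C, MT21A and MT3A in every sample, with MT3A at 0.0888 to 0.143 of the MT21A level. In NIL-D replicates 1 and 2, MT3A lay above MT21A, at 1.51 and 1.04 times its level, and in replicate 3 below it, at 0.557 times. Relative to MT2C, MT3A was at 0.343, 0.329 and 0.447 in NIL-D and at 0.0474, 0.0342 and 0.0598 in NIL-X. This ratio, which is free of the scaling of a sample, thus separated the lines without overlap.

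**Figure D3:**
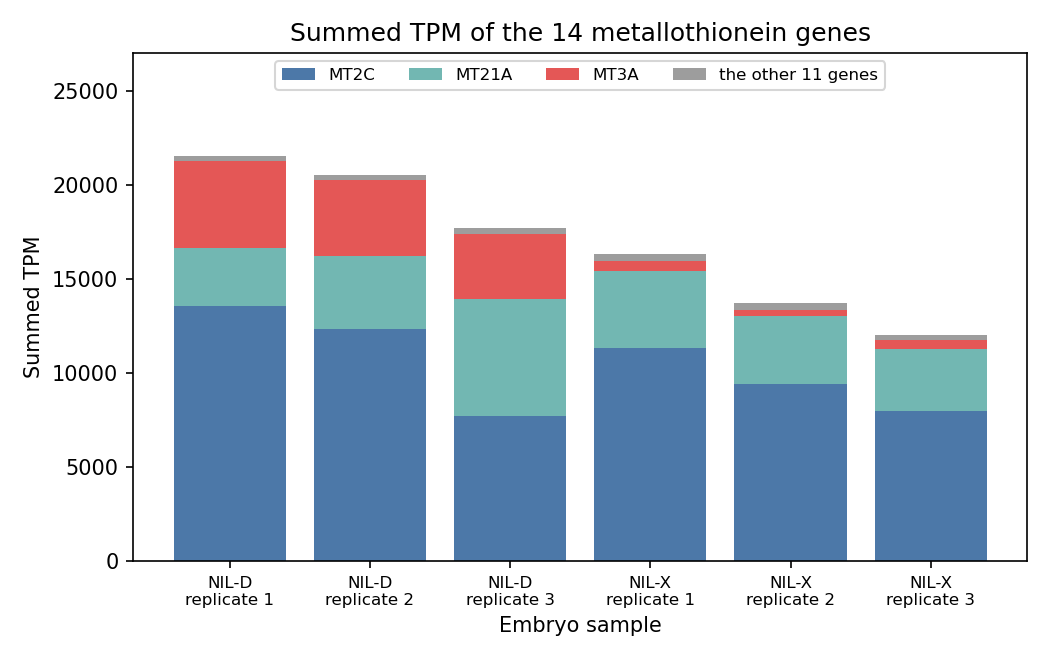
Summed TPM of the 14 metallothionein genes in each of the 6 embryo samples, as stacked bars of MT2C, MT21A, MT3A and the other 11 genes. The sums lie between 17684 and 21505 TPM in NIL-D and between 12040 and 16310 TPM in NIL-X, and the MT3A segment is the one that is larger in every NIL-D sample.

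Summed over the 14 genes, metallothionein transcripts came to 21505, 20525 and 17684 TPM in NIL-D and to 16310, 13725 and 12040 TPM in NIL-X. These sums did not overlap, and they corresponded to 1.99% ± 0.198 (SD, n = 3) of all TPM in NIL-D and 1.40% ± 0.215 (SD, n = 3) in NIL-X. Of the difference of the mean sums, 5880 TPM, MT3A made up 61.3%. Without MT3A the sums were 16861, 16470 and 14230 TPM in NIL-D and 15774, 13403 and 11565 TPM in NIL-X, and the lines overlapped. MT3A held 21.6%, 19.8% and 19.5% of metallothionein TPM in the NIL-D samples and 3.29%, 2.35% and 3.95% in the NIL-X samples. Sums over the members are descriptions and were not tested.

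A pair of genes on chromosome 1 was included by domain alone, without a metallothionein among its protein hits. OsZS_01G0048100 (1259 bp), with both domains and no Swiss-Prot or NR hit, was at 125, 125 and 173 TPM in NIL-D and at 198, 192 and 135 TPM in NIL-X. NIL-D replicate 3 exceeded NIL-X replicate 3, so that the lines overlapped, and the log2FC was -0.31 (SE 0.21, limma adjusted p = 0.503). Its next gene by number, OsZS_01G0048200, has an NR hit to the gene that follows MT2A in the RefSeq order of japonica rice (assembly ASM3414082v1), and no member had MT2A as its Swiss-Prot hit. OsZS_01G0048100 itself is not named in the files and is called here by its number.

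OsZS_01G0047400 (3417 bp), a long gene model with a disease resistance hit (RGA1) and both metallothionein domains, varied in a similar way across the samples. It was at 76.5, 90.6 and 118 TPM in NIL-D and at 127, 132 and 94.8 TPM in NIL-X, and the lines overlapped. The log2FC was -0.32 (SE 0.21, limma adjusted p = 0.486). The level of OsZS_01G0048100 was 1.38 to 1.63 times that of OsZS_01G0047400 in every sample, and whether the models share reads was not tested.

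Both type 1 genes had higher means in NIL-X. MT1B (OsZS_03G0171000, chromosome 3, 2253 bp) is the better expressed of them. It was at 35.8, 30.5 and 14.2 TPM in NIL-D and at 36.4, 37.9 and 35.5 TPM in NIL-X. The NIL-X samples lay close together, NIL-D replicate 1 was within their range and replicate 3 was far below it, so the lines overlapped at a log2FC of -0.53 (SE 0.32, limma adjusted p = 0.456). MT1B has no NR hit named a metallothionein, so its identity rests on the Swiss-Prot hit and the domain annotation. The same holds for MT1A and MT21A. MT3A and MT2C have no metallothionein domain in the annotation, and their identity rests on their Swiss-Prot and NR hits.

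MT1A (OsZS_11G0449900, chromosome 11, 420 bp) was the weakest gene tested. Its level was 0.60, 1.11 and 1.5 TPM in NIL-D and 5.48, 5.24 and 2.84 TPM in NIL-X. All NIL-D samples lay below all NIL-X samples. Means were 1.07 ± 0.45 TPM (SD, n = 3) and 4.52 ± 1.46 TPM (SD, n = 3), a 4.22-fold higher mean in NIL-X. The log2FC was -1.40 (SE 0.28, 95% interval -2.08 to -0.72) with a limma adjusted p of 0.112, so MT1A was not called. The pseudocount of 1 lowers the fold change of a gene at this level. Without NIL-D replicate 3, MT1A was called (log2FC -1.55, limma adjusted p = 0.0444), and it was called in no other of the 13 alternatives that gave it a value, whose adjusted p ranged from 0.0444 to 0.397.

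Of the 7 tested members, MT3A lay without overlap higher in NIL-D and MT1A without overlap lower. Among all tested genes, 24.3% did not overlap between the lines, with 4.53% higher and 19.7% lower in NIL-D. The 28.6% of tested members without overlap is close to this background. The median log2FC of the 7 tested members was -0.31, beside -0.15 for all tested genes, with 3 members above 0 and 4 below. The 4 below were MT1A, MT1B, OsZS_01G0048100 and OsZS_01G0047400, of which the last pair was included by domain alone. The median was the value of OsZS_01G0048100. The members thus did not share a direction.

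**Figure D4:**
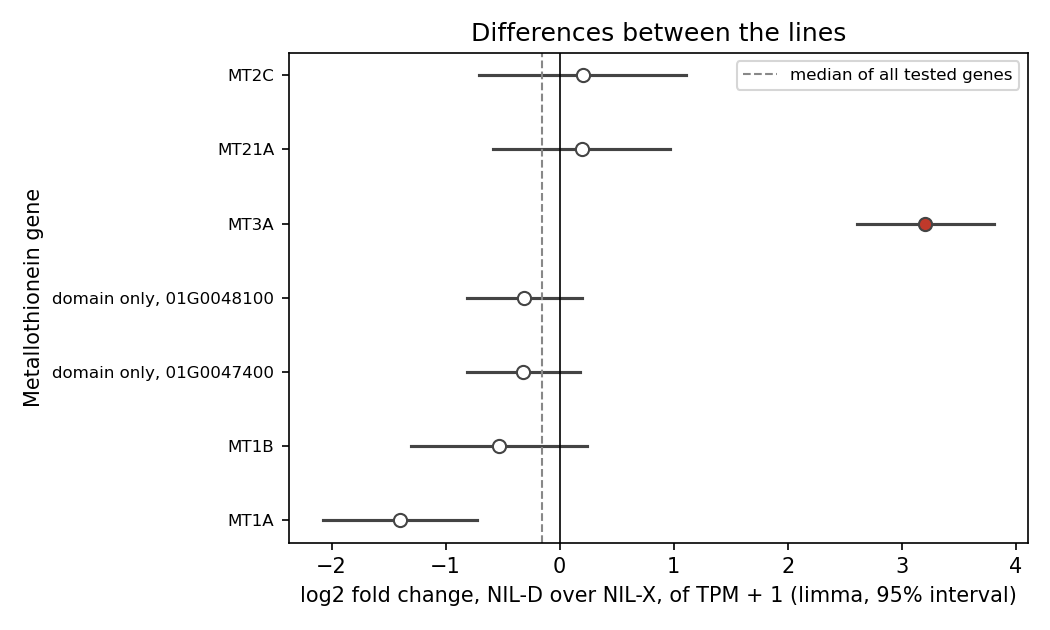
Log2 fold change (NIL-D over NIL-X, of TPM + 1) of the 7 tested metallothionein genes with its 95% limma interval; the filled point was called and the dashed line is the median of all tested genes, -0.15. The interval of MT3A runs from 2.60 to 3.81 and that of MT1A from -2.08 to -0.72, and the other 5 intervals hold 0.

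The other 7 members were at or near 0 and were not tested. MT2B (OsZS_01G0711300, chromosome 1, 243 bp) was at 1.90 TPM in NIL-X replicate 2 and at 0 elsewhere. MT3B (OsZS_05G0095300, chromosome 5, 198 bp), the second type 3 gene, was listed at 0 in all 6 samples, so that all type 3 TPM stood under MT3A. The gene models of MT2B and MT3B are very short, and whether their reads were missed or counted elsewhere was not tested.

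The last 5 members lie close together by gene number on chromosome 12. A pair of genes with an MT4C hit, OsZS_12G0342000 (810 bp) and OsZS_12G0344200 (725 bp), was listed at 0 in all samples. The third MT4C gene, OsZS_12G0344300 (789 bp), was at 0.11, 0.30 and 0.54 TPM in NIL-D and at 0, 0.68 and 0.42 TPM in NIL-X, which overlapped. MT4A (OsZS_12G0343900, 237 bp) was at 2.06 TPM in NIL-D replicate 2 alone, and OsZS_12G0344000 (1977 bp), a model with a retrotransposon hit and a metallothionein domain, at 0.03 TPM in NIL-X replicate 2 alone. Reads from near copies of this cluster could be split between them, so single values of these genes are uncertain.

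Genes of other metal-binding and metal-storing proteins were then counted, by Pfam domain, in the same fit. The list held 89 genes: phytochelatin synthase, which makes metal-chelating peptides from glutathione; glutamate-cysteine ligase and glutathione synthase, which make glutathione; nicotianamine synthase, whose product carries iron and zinc; the iron store ferritin; copper/zinc superoxide dismutase; and proteins with a heavy-metal-associated domain. Of the 53 tested genes, none was called by limma in either direction, beside 0.642% of all tested genes, and the smallest adjusted p was 0.0832. An unadjusted p below 0.05 was found for 10 of them (18.9%), beside 15.6% of all tested genes. The median log2FC was -0.11, near that of all tested genes. Without overlap, 2 genes were higher and 7 lower in NIL-D, which is 17.0% of the tested list beside 24.3% of all tested genes. Without NIL-D replicate 3, 5 of the 53 (9.43%) were called, beside 2.84% of all genes tested in that fit.

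**Figure D5:**
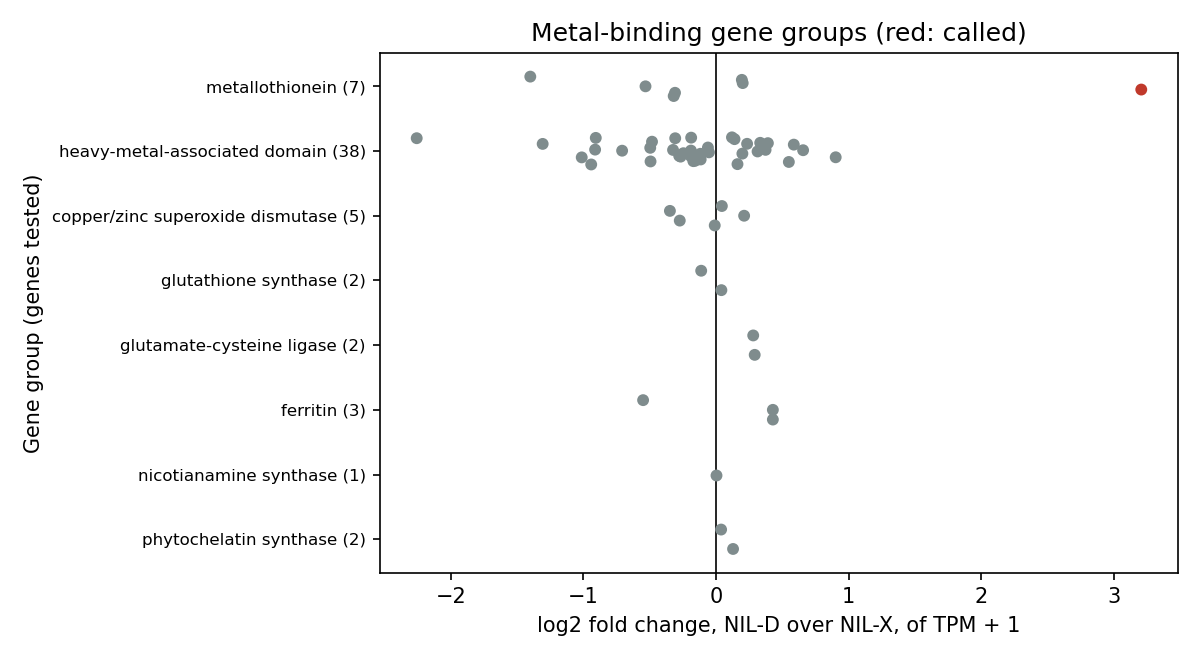
Log2 fold change (NIL-D over NIL-X, of TPM + 1) of the tested metallothionein genes and of the tested genes of 7 other metal-binding groups, 1 point per gene; a gene with both a superoxide dismutase and a heavy-metal-associated domain is drawn in the former group only. MT3A, at 3.21, is the 1 called gene (red), and the 53 genes of the other groups lie between -2.26 and 0.90.

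None of the enzymes that make the thiol chelators or nicotianamine passed the test. The better expressed phytochelatin synthase gene, OsZS_06G0001300, had a NIL-D mean of 19.6 ± 3.07 TPM and a NIL-X mean of 18.9 ± 1.78 TPM (SD, n = 3 each). Glutamate-cysteine ligase B (OsZS_07G0277600) was at 202 ± 47.4 and 164 ± 14.4 TPM (log2FC 0.28, limma adjusted p = 0.503), and ligase A (OsZS_05G0026600) at 153 ± 34.3 and 123 ± 6.68 TPM (log2FC 0.29, limma adjusted p = 0.453). The glutathione synthase genes OsZS_11G0405600 and OsZS_12G0304800 were at 10.5 to 12.9 TPM in the mean of either line. The 1 nicotianamine synthase gene that was tested, NAS3, was at 4.75 and 4.54 TPM.

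Ferritin genes had log2FC values of either sign. OsZS_12G0005000 was at 42.8, 35.4 and 37.8 TPM in NIL-D and 53.4, 55.4 and 62.1 TPM in NIL-X, lower in NIL-D without overlap (log2FC -0.55, SE 0.13, limma adjusted p = 0.148). The other ferritin genes, OsZS_11G0006100 and OsZS_11G0452600, had the same length and identical values, 22.6, 24.3 and 14.9 TPM in NIL-D and 13.0, 15.9 and 15.4 TPM in NIL-X, so that their reads could not be told apart. Their lines overlapped. None of the ferritin genes was called.

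Among the metal-dependent enzymes and carriers, copper/zinc superoxide dismutase 2 (OsZS_07G0466300) was at 763 ± 297 and 922 ± 118 TPM in NIL-D and NIL-X (SD, n = 3; limma adjusted p = 0.621), and superoxide dismutase 1 (OsZS_03G0221100) at 319 ± 40.7 and 384 ± 14.2 TPM, lower in all NIL-D samples (log2FC -0.27, limma adjusted p = 0.409). The gene with the highest mean TPM of the heavy-metal-associated group, OsZS_07G0210300, close to HIPP7 of Arabidopsis, was at 577, 571 and 588 TPM in NIL-D and 306, 391 and 477 TPM in NIL-X. The NIL-D samples lay close together above all NIL-X samples, at a log2FC of 0.59 (SE 0.19, limma adjusted p = 0.241). The next gene by level, OsZS_04G0153500 (close to HIPP27 of Arabidopsis), was at 231 ± 154 and 285 ± 7.85 TPM, with a wide spread in NIL-D. Of the 60 tested genes of the metallothionein and metal-binding lists, MT3A was the 1 called.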

How the data were processed

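Per the study's methods, reads were cleaned by SeqPrep and Sickle, aligned by TopHat against the indica reference ZS97RS3, assembled by Cufflinks and quantified by RSEM. The submitters' processing notes also name Bowtie 0.12.2 and, unlike the study's methods, a mouse genome build. The deposited table held TPM per gene and sample with 2 decimals, the authors' mean of each line (not used), gene length and annotation. The mean TPM of a gene decided whether it was tested.

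Groups came from the strain labels. The lines were compared with limma 3.58.1 (R 4.3.3; lmFit, eBayes with trend) on log2(TPM + 1), over the 21500 genes with a mean of at least 0.5 TPM, with Benjamini-Hochberg adjustment over all of them. The methods of the study name a count tool, which was not used on TPM. The fit was tested on simulated data with noise drawn independently for each gene. No simulated sample was made to stand apart as NIL-D replicate 3 did, so that case was not covered. P-values set the difference of the lines against the spread between 3 pooled samples per line, with each variance moderated by those of all tested genes.

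The members and lists were chosen with earlier results of these data known. All tested members were named, untested ones by their values, and of the metal-binding list the called genes and up to 2 of highest mean TPM per domain. No sequence was used here, so promoters and proteins were not analysed. Alternatives were the pseudocount (0.1), the filter (none or a mean of 5 TPM), 3 rescalings (median ratio, quantile, without the 10 highest genes), eBayes without trend, a replicate block and each sample left out in turn.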

Additional observations from a re-analysis of the deposited data

How the results depend on the processing

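MT3A was called under all 14 alternatives, and the count of called metallothionein genes stayed at 1 except without NIL-D replicate 3, so that leaving out a sample gave 1 to 2. For the 138 genes called in all, a filter at a mean of 5 TPM gave 57, and leaving out a sample gave 37 (without NIL-X replicate 1) to 611 (without NIL-D replicate 3). Of the metal-binding list, 0 to 5 genes were called when a sample was left out. The 5, called without NIL-D replicate 3, were OsZS_02G0343400 (log2 fold change 1.00) and OsZS_05G0282600 (1.26), higher in NIL-D, and OsZS_01G0299600 (-3.47), OsZS_05G0044500 (-1.09) and OsZS_06G0449000 (-1.25), lower. They were named after their values were seen. MT21A turned to -0.086 without NIL-D replicate 3, in a range of -0.086 to 0.42, and MT1A was called there at -1.55. The causes were not tested.

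Median-ratio rescaling and quantile normalization moved the median of all genes by 0.147 and 0.144 and the split of higher and lower calls from 57 and 81 to 75 and 62, and to 72 and 54. The members kept 3 values above 0 and 4 below in both. The summed metallothionein difference of 5880 TPM ranged from 4887 to 7022 with a sample left out and was 7842 under median-ratio rescaling.

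The fit with the replicate number as a block called 43 genes, among them 1 metallothionein gene, MT3A (adjusted p = 0.0465 by limma). Same-numbered samples correlated at 0.0164, 0.202 and 0.199 in their deviations from the line means. The values of replicates 2 and 3 were the highest of all pairings, while NIL-D replicate 1 correlated best with NIL-X replicate 2 (0.0593). Since the labels do not tie a number to a plot, the numbers were not taken as pairs in the main fit.

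TPM holds no read counts, so the precision of low genes such as MT1A and the chromosome 12 genes is unknown, and with 3 samples per line no exact permutation test can go below p = 0.1.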
